A study of Mus musculus with 5 samples.

Results

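Cytochrome P450 enzymes are heme proteins that insert an oxygen atom into fats, steroids, bile acids, vitamins and foreign compounds. The liver holds most of those that handle drugs, and the families grew in the mouse by local gene duplication, so many members lie side by side and differ little in sequence. Argonaute (Ago) is the protein that carries a miRNA to a matching stretch of mRNA. In Ago HITS-CLIP, tissue is irradiated with ultraviolet light, Ago is pulled down with an antibody and the RNA fixed to it is sequenced. Reads that pile up at one place form a cluster, and a cluster is listed with the miRNAs whose seed, bases 2 to 8 counted from the 5′ end, can pair within it.

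The P450 genes were taken by their symbol, as Cyp followed by digits, a letter and digits, from tables of miRNA-target interactions in livers of C57BL/6 mice. There were 5 tables, for the embryonic days e12.5, e15.5 and e18.5, postnatal day 7 (P7) and the adult, with 1 sample per stage and no other treatment than irradiation at 254 nm with 0.2 J/cm2 in 3 exposures. Ago2 antibodies were used for the embryonic livers and antibodies to Ago2 and Ago1 for P7 and adult livers. Between the embryonic and the later tables the antibody and the stage thus cannot be told apart. Each embryonic table held 2 lists of clusters that the labels do not describe. The methods name biological replicates for the Ago2 libraries, but the study's library listing has a replicate for e18.5 only. Whether the lists are replicates is not given, so the lists are shown side by side and not used as replicates. Of 22714 genes listed in any table, 81 were P450 genes by this rule, 18 of them in all 5 tables and 12 in 1 table only. RefSeq holds 92 protein-coding mouse genes with such a symbol. Of these, 80 were listed, including Cyp2c23 under its older symbol Cyp2c44, and 12 were not, among them the adrenal enzymes Cyp11b1, Cyp11b2 and Cyp21a1 and the vitamin D enzymes Cyp24a1 and Cyp27b1. The remaining listed symbol, Cyp2j7, is no protein-coding gene in RefSeq. A table lists a cluster only with at least 5 reads and a seed site, so that a gene described as not listed may still have been bound. Where 5 values stand in a row they run over the stages in this order, from e12.5 to the adult.

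The target stretches below are those of the cluster with the most adult reads in the leading P450 genes, and show what Ago was found on. They were read from the tables and run 5′ to 3′ on the mRNA. Capitals mark the site of the most abundant miRNA among the sites listed with the highest read number of the cluster. These are the bases that match its seed and, in the site types 8mer and 7mer-A1, an A opposite base 1 of the miRNA, which counts as part of the site whether or not it pairs. All 8191 different P450 entries matched the sequence of GRCm38 at their listed place, and all 1807 pairs of a cluster and a P450 gene lay on the strand of the gene.
Cyp2e1, coding exon 7 of 9, chr7:140773052-140773073, plus strand, miR-17-3p: ggccaagccgtgcccCTGCAGt
Cyp8b1, its single exon, chr9:121915254-121915275, minus strand, miR-122-5p: cagtgccctgaaacACACTCCA
Cyp2b9, coding exon 9 of 9, chr7:26210203-26210224, plus strand, miR-122-5p: aaaggacattgacctCACTCCc
Cyp3a11, coding exon 1 of 13, chr5:145879723-145879744, minus strand, miR-29a-5p: ctgggtgctcctagcAATCAGc
Cyp2d26, coding exon 1 of 9, chr15:82794089-82794110, minus strand, miR-7676-3p: ctggtggacctggtGCACCGGc
Cyp2f2, coding exon 2 of 10, chr7:27121601-27121621, plus strand, miR-143-3p: ctcctcctggctgTCATCTCt
Cyp2c68, coding exon 9 of 9, chr19:39689149-39689171, minus strand, miR-9-5p: gaaacctctggttgatCCAAAGg
Cyp4a14, coding exon 1 of 12, chr4:115495979-115496000, minus strand, miR-16-5p: cttacgaaggcagtgGCTGCTc
Cyp2j5, coding exon 7 of 9, chr4:96634228-96634248, minus strand, miR-378a-3p: ctgtcatccatgagGTCCAGA

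All 9 stretches lie in coding sequence. The miRNAs chosen in this way were often scarce, and the choice passed over any site in the cluster that was listed with fewer reads. In the adult table miR-122-5p ranked 3 and miR-16-5p ranked 2, but miR-17-3p ranked 153, miR-29a-5p 142, miR-9-5p 354 and miR-7676-3p 356, with 0.00894% or less of the numbers that the table gives for its miRNAs. The Cyp8b1 stretch is an 8mer for miR-122-5p, the liver's own miRNA, and the Cyp2b9 stretch matches the same miRNA over 6 bases. The leading cluster listed under Cyp4v3 lay outside that gene and its stretch is not shown.

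The next stretches are sites of 7 or 8 bases for better known miRNAs in P450 3′UTRs. They were chosen after their values were seen.
Cyp2j5, chr4:96629010-96629031, minus strand, miR-30a-5p: gtgtttacaaagtaTGTTTACc
Cyp2j5, chr4:96629023-96629044, minus strand, miR-30a-5p: agaaggacaaagagTGTTTACA
Cyp2d22, chr15:82371494-82371514, minus strand, miR-92a-3p: ctggggtcctaatGTGCAATA
Cyp3a13, chr5:137894186-137894198, minus strand, miR-92a-3p: aaagatTGCAATA
Cyp2a12, chr7:27036679-27036700, plus strand, miR-29a-3p: gggagagcctgaagTGGTGCTA

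The mature miRNAs that pair with these 3′UTR sites, and the most abundant of the coding ones that is printed here, are given with the seed in capitals, from RefSeq on GRCm38.p6.
miR-16-5p: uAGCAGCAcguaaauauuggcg
miR-30a-5p: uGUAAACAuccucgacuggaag
miR-92a-3p: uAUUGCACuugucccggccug
miR-29a-3p: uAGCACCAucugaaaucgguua

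P450 clusters were rare in the early fetal liver and far more frequent in the adult. There were 83, 59, 218, 515 and 897 from e12.5 to the adult. As a share of all clusters in the table these were 0.0399% (95% Wilson interval 0.0322 to 0.0494), 0.0727% (0.0564 to 0.0938), 0.283% (0.248 to 0.323), 0.413% (0.379 to 0.450) and 1.10% (1.04 to 1.18). The adult share was 27.7 times that at e12.5. The intervals cover counting error only, since a stage had 1 sample, and no stage's interval overlaps that of another stage.

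The reads showed a steeper course. The value used for a cluster is the highest read number that the table gives for it, and the value of a gene is the sum over its clusters. P450 clusters held 2768, 2329, 11158, 17998 and 87075 reads. Scaled to 1000000 cluster reads of the table (RPM) these were 61.7, 141, 858, 1091 and 3499 RPM, a 56.7-fold difference between the adult and e12.5. The e12.5 table heads its read column differently from the others, so folds against e12.5 may set unlike measures side by side. With the lists of each table pooled, the steps were 2.29-fold from e12.5 to e15.5, 6.08-fold to e18.5, within the stages that share the Ago2 antibodies, 1.27-fold to P7 and 3.21-fold to the adult. The lists within the embryonic tables differed among themselves, with 77.1 and 54.1 RPM for e12.5. For e15.5 they had 262 and 96.8, and for e18.5 they had 982 and 385. From e15.5 to e18.5 the step was thus 3.75-fold within the first lists and 3.98-fold within the second, below the pooled value. Scaled to reads in mRNA exons these were 3.77-fold and 5.56-fold, against 4.87-fold from P7 to the adult, so which step was larger depended on the list and the scaling. Both lists of e18.5 lay above both lists of e15.5, and for the share of clusters they were 0.287% and 0.286% against 0.0836% and 0.0694%.

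**Figure D1:**
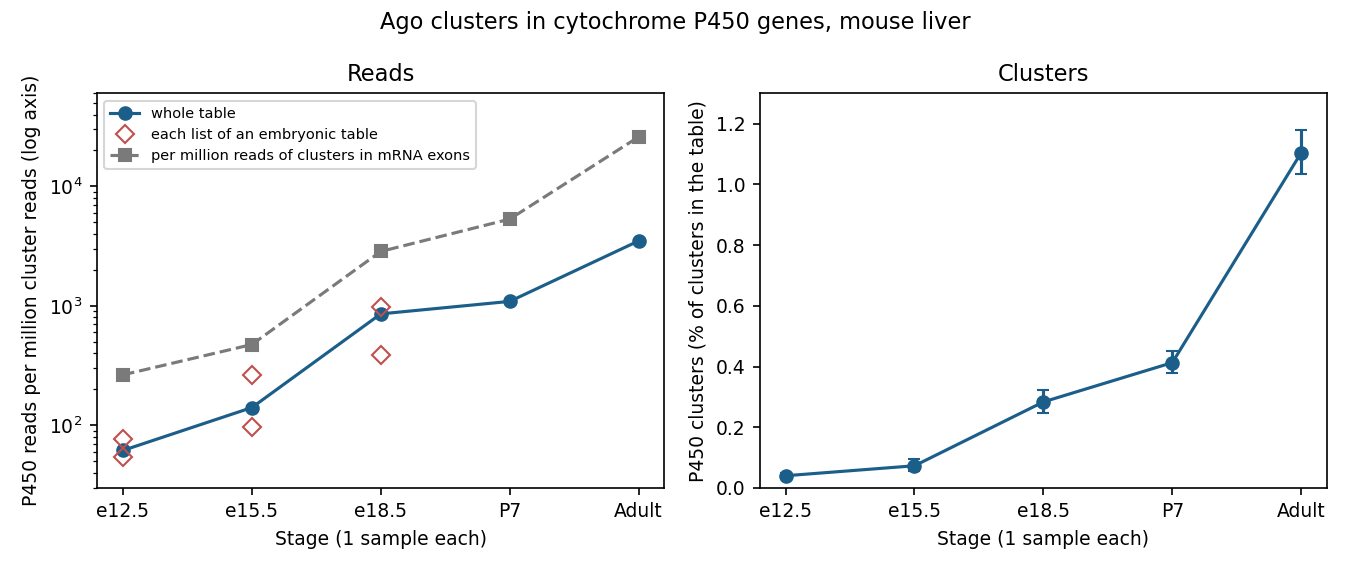
P450 cluster reads in RPM on a log axis (left) and P450 clusters as a percentage of all clusters with 95% Wilson intervals (right), by stage with 1 sample each. Filled circles give the whole table, open diamonds each list of an embryonic table and grey squares the same scaled to reads of clusters in mRNA exons, which rise from 265 at e12.5 to 25981 in the adult.

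The scale matters to the size of these folds. The 10 highest clusters outside mRNA exons held 43.5% of the reads of the e12.5 table and 49.9% of those of the adult table. Clusters in 3′UTR, coding sequence (CDS) or 5′UTR held 23.3% of the reads of the e12.5 table and 13.5% of those of the adult table. Against these mRNA reads alone, P450 reads were 98.1-fold higher in the adult than at e12.5. RNA levels were not measured in these tables, so that more mRNA and more Ago per mRNA cannot be told apart, nor can more cells of a type and more RNA per cell.

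Markers of several cell types also differed between the tables. The 6 hepatocyte markers together had 793, 2526, 6484, 7277 and 8950 RPM. Without Alb, which carried much of the sum, the other 5 had 448, 1330, 3893, 3460 and 2702 RPM and were thus lower in the adult than at P7. The 7 erythroid markers, among them the globins of the blood cells that form in the fetal liver, were between 66061 and 96153 RPM in the embryo, 34508 at P7 and 1632 in the adult. Hba-a1 and Hba-a2 were listed with nearly the same reads, and with only 1 of them the sums were 36265, 52178, 51205, 18266 and 883 RPM. The 4 macrophage markers, of which Adgre1 was listed at no stage, had 7.47, 10.1, 37.7, 58.7 and 88.7 RPM. The sum was highest in the adult through Clec4f, with 17.3 RPM at P7 and 66.7 in the adult. Cd5l had 14.0 and 15.8 RPM at these stages, and Marco was lower in the adult, with 27.4 and 6.27. The 4 endothelial markers had 24.4, 35.7, 70.3, 199.6 and 157 RPM and the 4 stellate and mesenchymal ones 36.2, 28.1, 70.0, 160.0 and 51.2 RPM, both highest at P7. The 3 leukocyte markers lay between 13.7 and 124.7 RPM, lowest in the adult, and the 3 bile duct markers at 18.2 RPM or less. P450 reads divided by the hepatocyte marker reads were 0.0778, 0.0558, 0.132, 0.150 and 0.391. The ratio was lower in the e15.5 table than in that of e12.5 and higher at each later stage. Without Alb the ratios were 0.138, 0.106, 0.220, 0.315 and 1.3. Alb, Apoa1, Ttr, Trf, Serpina1a and Fgb were all listed in every table, and Afp, the fetal albumin, in all but the adult one. The part of the cell mixture in the P450 values was not tested.

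Gene by gene, 40, 30, 46, 65 and 72 P450 genes were listed from e12.5 to the adult, of 19061, 14298, 14330, 16669 and 13969 genes in all. Scaled reads were highest in the adult for 62 of the 81 genes, at P7 for 9, at e18.5 for 4, and at e15.5 and e12.5 for 3 each. Over all 22714 genes listed in any table, the adult value was the highest for 10.2% and the e12.5 value for 29.8%. With 1 sample per stage no test across samples was possible, and a gene was called higher or lower where its scaled reads differed at least 4-fold between tables that both listed it, with at least 20 reads in 1 of them. Between e12.5 and the adult, 34 P450 genes could be compared. Of these, 28 were higher in the adult, against 11.2% of all genes compared, and 1 was lower, against 33.3% of all genes. The lower call was lost with clusters of at least 10 reads, with sites of at least 7 bases and with the second list alone. With the first list of the e12.5 table alone, 14 P450 genes could be compared and 8 were higher, against 6.31% of all genes. The median log2 difference was 4.64 over the P450 genes and -1.14 over all genes. A further 31 of the 64 P450 genes with at least 20 adult reads were not listed at e12.5, against 7.92% of all such genes. In the other direction 1 of 23, Cyp46a1, was not listed in the adult, against 28.3%.

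Calls were also made between neighbouring stages. From e12.5 to e15.5, 8 of 18 P450 genes were higher (8.79% of all genes) and 1, Cyp4a31, was lower (8.51%), while 3 of the 18 genes with at least 20 reads were new (3.98%) and 8 of 23 were no longer listed (23%). From e15.5 to e18.5, 12 of 22 were higher (14.5%) and none was lower (13.7%). The 12 include Cyp4v3, whose e18.5 reads all lay outside the gene. Cyp4v3 also counts as compared but not called at the step before, where its reads within the gene were 4.15 and 0.908 RPM. At e18.5, 20 of the 42 genes with at least 20 reads were new (14.1%), while 2 of 18 were no longer listed (14.7%). From e18.5 to P7, 8 of 44 were higher (10.3%) and 4 were lower (15.7%), and 13 of 56 were new at P7 (14.9%), while 2 of 42 were no longer listed (6.66%). From P7 to the adult, 22 of 58 were higher (3.34%) and 1 was lower (19.8%), and 8 of 64 were new in the adult (5.74%), while 1 of 56 was no longer listed (15.3%).

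The genes higher at e15.5 than at e12.5 were Cyp2c67, Cyp2c68, Cyp2c69, Cyp2d10, Cyp2d26, Cyp3a13, Cyp4f39 and Cyp8b1. Those higher or newly listed at e18.5 included Cyp2e1, Cyp2f2, Cyp2j5, Cyp4a14, Cyp7a1, Cyp27a1 and Cyp39a1. Those higher or newly listed at P7 included Cyp2b9, Cyp2b13, Cyp3a11, Cyp1a1, Cyp1a2 and Cyp4b1. Those higher or newly listed in the adult included Cyp2a4, Cyp2a5, Cyp2c29, Cyp26a1, Cyp26b1 and Cyp17a1. Members outside the 28 genes that the naming rule gives were named after their values were seen.

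**Figure D2:**
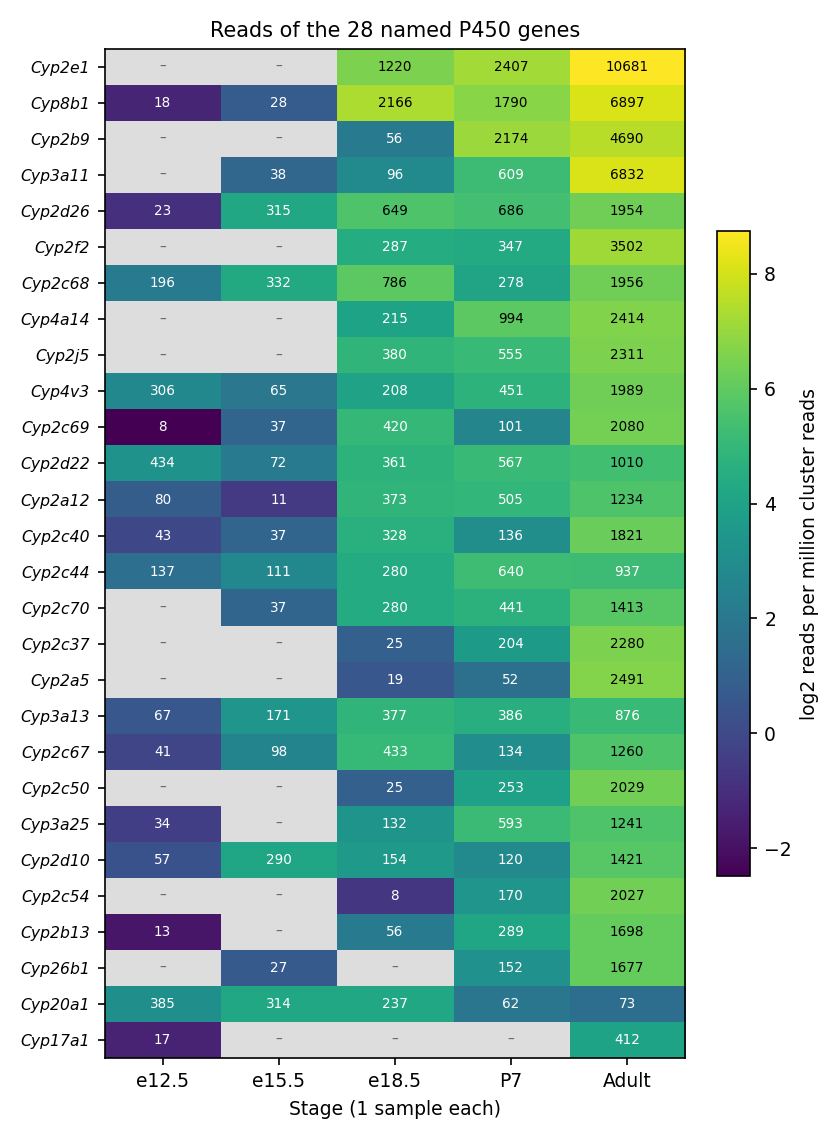
Reads of the 28 named P450 genes by stage, with 1 sample each. Colour gives log2 RPM, the number in a cell the unscaled reads, and a grey cell with a dash a gene that was not listed. Most genes are brightest in the adult column. The exceptions are Cyp20a1, with 385 reads at e12.5 and 73 in the adult, and Cyp2c44, whose scaled reads were slightly higher at P7.

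The leading gene changed with the stage. In the embryo it was first Cyp2d22, with 15.7% of the P450 reads, then Cyp2c68 with 14.3% and Cyp8b1 with 19.4%, and it was Cyp2e1 at P7 and in the adult, with 13.4% and 12.3%. The 10 highest genes held 72.7% of the P450 reads at e12.5 and 50.8% in the adult, so the reads were spread over more genes in the adult.

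The enzymes of drugs and foreign compounds (families Cyp1, Cyp2 without Cyp2r1, and Cyp3) were the largest group, with 53 genes listed. The group had 31.4, 103, 565, 817 and 2699 RPM. Its share of all P450 reads was 51.0% at e12.5 and 77.1% in the adult. Scaled reads peaked in the adult for 45 of the 53 genes.

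Cyp2e1 oxidises ethanol, paracetamol and other small molecules. It was not listed at e12.5 or e15.5 and had 1220 reads at e18.5, 2407 at P7 and 10681 in the adult. In RPM per kb of mRNA it was the highest P450 gene of the adult table, at 234, ahead of Cyp8b1 at 142, Cyp3a11 at 117 and Cyp2b9 at 100.5. It is alone in its subfamily in the mouse, and none of its 18 adult clusters shared a listed stretch with another P450 gene. Its adult reads were 2.94-fold those of P7 after scaling.

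Cyp3a11 is a main oxidase of drugs and steroids in mouse liver. It was not listed at e12.5 and had 38, 96, 609 and 6832 reads from e15.5 on, and was 7.44-fold higher in the adult than at P7 after scaling. Its relative Cyp3a13 took another course, with 67, 171, 377, 386 and 876 reads in the order of stages, and was 1.5-fold higher in the adult than at P7. This direction turned with sites of at least 7 bases, at a log2 of -0.016, and by the highest cluster, at -0.46. Cyp3a13 was called higher at the first step, where Cyp3a11 was newly listed, and Cyp3a11 was called higher at P7 and in the adult. Cyp3a25 had 34 reads at e12.5, was not listed at e15.5, and had 132 reads at e18.5, 593 at P7 and 1241 in the adult. In the adult 10 of the 22 clusters of Cyp3a25 and 10 of the 20 of Cyp3a11 shared a listed stretch with another P450 gene. Without such clusters the adult level was below that of P7 for Cyp3a25 and still above it for Cyp3a11.

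Cyp2b9 and Cyp2b13 are known for higher levels in females in adult mouse liver. Cyp2b9 was not listed at e12.5 or e15.5 and had 56 reads at e18.5, 2174 at P7 and 4690 in the adult. The step from e18.5 to P7 was 30.6-fold after scaling. Cyp2b13 had 13 reads at e12.5, was not listed at e15.5, and had 56, 289 and 1698 reads at the later stages. The 2 genes had the same read number at e18.5. Clusters of 140 and 30 reads at P7 and of 205 and 106 in the adult were also listed alike for both. These values may thus count the same reads for each gene. The labels used here do not give the sex of the mice.

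A single cluster carried most of Cyp2b9. The cluster in coding exon 9 shown above had 3392 of the 4690 adult reads and 1716 of the 2174 reads at P7. The highest adult cluster of Cyp2e1 had 3671 of 10681 reads and that of Cyp2f2 711 of 3502. Cyp2f2, which activates naphthalene and is best known from the airways, was not listed before e18.5 and had 287 reads at e18.5, 347 at P7 and 3502 in the adult.

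Most Cyp2c genes lie together on chromosome 19, with Cyp2c44 apart from them, and they showed at least 2 courses. Cyp2c40, Cyp2c67, Cyp2c68 and Cyp2c69 were listed from e12.5, had 328, 433, 786 and 420 reads at e18.5, were lower at P7, with 136, 134, 278 and 101 reads, and were highest in the adult, with 1821, 1260, 1956 and 2080. After scaling, P7 was at 0.327, 0.244, 0.279 and 0.19 times the level of e18.5, and of these Cyp2c67 and Cyp2c69 were called lower. The adult level of this set rests on stretches shared with other P450 genes. Without the clusters that hold them, log2 of adult over P7 was -0.48 for Cyp2c68 and 0.77 for Cyp2c40, and gave no value for Cyp2c67 and Cyp2c69. Cyp2c37, Cyp2c50 and Cyp2c54, which oxidise arachidonic acid, were not listed before e18.5, had 25, 25 and 8 reads there, 204, 253 and 170 at P7, and 2280, 2029 and 2027 in the adult. Cyp2c29 was listed with 9 reads at e15.5 and 27 at P7 but with 2165 in the adult.

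Members of each of these Cyp2c sets cannot be told apart in full. In the adult 15 of 17 clusters of Cyp2c40, 12 of 14 of Cyp2c67, 12 of 18 of Cyp2c68 and 11 of 13 of Cyp2c69 held a listed stretch of at least 20 bases that also stood in a cluster of another P450 gene. The last coding exon of Cyp2c68, shown above, had 21, 85, 26 and 664 reads from e15.5 to the adult, and the same 4 numbers were listed for Cyp2c40. Cyp2c70, which makes the muricholic acids of mouse bile, and Cyp2c44 had no shared stretch among their 24 and 18 adult clusters. Cyp2c70 was not listed at e12.5 and had 37, 280, 441 and 1413 reads from e15.5 on. Cyp2c44 was bound at every stage, with 137, 111, 280, 640 and 937 reads, and its scaled reads at P7 and in the adult were nearly equal, at 38.8 and 37.7 RPM.

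Cyp2a5, a hydroxylase of coumarin and nicotine, and Cyp2a4 were, with Cyp2c29, the P450 genes with the highest adult levels relative to P7 among those listed at both. Cyp2a5 had 19 reads at e18.5, 52 at P7 and 2491 in the adult, and Cyp2a4 had 20, 16 and 1981. These adult values were 31.8-fold and 82.1-fold those of P7, against 53.2-fold for Cyp2c29, and 13 of the 16 clusters of Cyp2a5 and 12 of the 16 of Cyp2a4 shared a stretch with another P450 gene. Cyp2a12 differed from them, with 80, 11, 373, 505 and 1234 reads. Cyp1a2, which breaks down caffeine, was not listed in the embryo and had 216 reads at P7 and 1529 in the adult.

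Of the Cyp2d genes on chromosome 15, Cyp2d10, Cyp2d22 and Cyp2d26 were listed at every stage with over 20 reads, whereas Cyp2d9, Cyp2d11, Cyp2d12 and Cyp2d40 had 43 reads or fewer at any embryonic stage. Cyp2d34 had 69 reads at e12.5, was not listed at e15.5 and e18.5, and had 22 at P7 and 36 in the adult. Cyp2d26 had 23, 315, 649, 686 and 1954 reads. Cyp2d10 had 57, 290, 154, 120 and 1421 reads. Cyp2d22, the mouse gene most like the human enzyme of codeine and debrisoquine, had 434, 72, 361, 567 and 1010 reads. All 434 reads of Cyp2d22 at e12.5, added over both lists, came from 1 cluster, which holds the 3′UTR site of miR-92a-3p shown above. The adult table listed 15 clusters.

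The fatty acid hydroxylases of family Cyp4 counted 14 genes. The group had 13.4, 11.1, 74.1, 131 and 335 RPM. Cyp4a14, which hydroxylates the end of fatty acids and is known as a target of the fasting receptor PPARα, was not listed before e18.5 and had 215 reads at e18.5, 994 at P7 and 2414 in the adult. Cyp4a10 had 5, 119, 170 and 1015 reads from e15.5 on. Cyp4f18, known from white blood cells, went the other way, with 109 reads at e12.5, none listed at e15.5, then 57, 20 and 7 reads, and was called lower in the adult than at P7, and than at e12.5 with the limits given above.

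Cyp4v3 needs a reservation. It had 306, 65, 208, 451 and 1989 reads in the order of stages, but 17 of its 33 adult clusters, with 1470 of the reads, lay outside the gene in GENCODE M21, in the neighbouring gene Klkb1. Within the gene it had 186 and 15 reads at the first stages, none listed at e18.5, 43 at P7 and 519 in the adult. Over all P450 genes, clusters outside the gene held 120 of 2768 reads at e12.5 and 1492 of 87075 in the adult.

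The bile acid and cholesterol enzymes, 6 genes, had their largest step before birth. The group had 7.47, 4.90, 200.02, 129 and 346 RPM. Its share of all P450 reads was 23.3% at e18.5, against 3.48% at e15.5 and 9.89% in the adult. Cyp8b1, which steers bile acid synthesis to cholic acid, accounted for most of this, with 18, 28, 2166, 1790 and 6897 reads. After scaling, its value was 98.2-fold higher at e18.5 than at e15.5 and 1.66-fold higher in the adult than at e18.5.

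The other enzymes of that group were listed with fewer reads. Cyp7a1, the rate-limiting enzyme of the classic route, was not listed at e12.5 or e15.5 and had 100 reads at e18.5, 55 at P7 and 104 in the adult. Cyp27a1, which starts the alternative route in mitochondria, had 188 reads at e12.5, was not listed at e15.5, had 152, 34 and 1232 reads at the later stages, and was called lower at P7 and higher again in the adult. Cyp39a1, which acts on hydroxylated cholesterol, had 22, none listed, 163, 181 and 214 reads. Cyp7b1, which also acts on hydroxylated cholesterol, had 78, 53, 21, 40 and 168 reads. Cyp46a1, the cholesterol hydroxylase of the brain, was listed with 29 reads at e12.5 and 25 at P7 only.

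The steroid hormone enzymes had few reads. Cyp17a1, which is needed for androgens, had 17 reads at e12.5 and 412 in 12 adult clusters, and was not listed between. Cyp11a1, which starts steroid synthesis, had 7 reads at e12.5 and 17 at P7, and Cyp19a1, the aromatase, had 14 reads at e12.5 only. In the vitamin D and retinoic acid group, the retinoic acid hydroxylase Cyp26b1 had 27 reads at e15.5, 152 at P7 and 1677 in the adult, and its relative Cyp26a1 was listed in the adult only, with 731 reads. The group as a whole had 9.58 RPM at P7 and 99.2 in the adult. No stretch of Cyp26a1 or Cyp26b1 was shared with another P450 gene.

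Cyp20a1, an enzyme without a settled substrate, was the named gene with the opposite course. It had 385, 314, 237, 62 and 73 reads, or 8.58, 19, 18.2, 3.76 and 2.93 RPM. The difference between the adult and e12.5 was 0.342-fold and did not reach a call, while that between P7 and e18.5, at 0.206-fold, did.

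**Figure D3:**
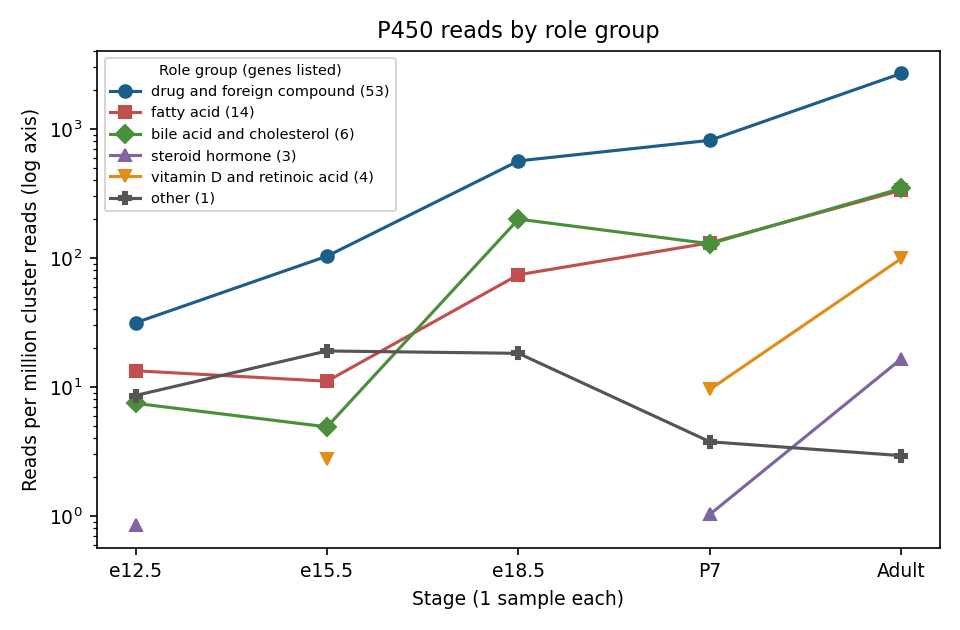
RPM of the 6 role groups of P450 genes by stage, on a log axis, with 1 sample each and the number of genes listed in parentheses. A point is missing where no gene of the group was listed. The bile acid and cholesterol group rises from 4.90 at e15.5 to 200.02 at e18.5, while Cyp20a1, the other group, ends at 2.93 in the adult.

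P450 clusters lay mostly in coding sequence. Of the adult P450 clusters in mRNA exons, 693 of 820, or 84.5% (95% Wilson interval 81.9 to 86.8), were listed under CDS, and 179, or 21.8% (19.1 to 24.8), under 3′UTR; a cluster can be listed under both. Over all genes these shares were 72.9% (72.5 to 73.2) and 29.7% (29.3 to 30.1). At e12.5 the P450 share under CDS was 81.6% (68.6 to 90.0) of 49 clusters, against 61.3% (61.0 to 61.7) over all genes. The P450 share under CDS was above that of all genes in each of the 5 tables.

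The lengths of the regions bear on this. In the transcript with the longest coding sequence, CDS made up 69.8% of the mRNA length of the 72 P450 genes listed in the adult and 52.9% over all coding genes listed there. Per kb of sequence, adult P450 genes had 6.42 clusters in CDS and 4.37 in 3′UTR, a ratio of 1.47, and all genes 1.79 and 0.948, a ratio of 1.89. The ratio was below that of all genes also at e12.5, with 0.981 against 1.12, and at P7, with 1.26 against 1.38. It was above it at e15.5, with 1.27 against 1.21, and at e18.5, with 1.35 against 1.28. Counted per length, clusters were thus not weighted to CDS more than over all genes in every table.

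**Figure D4:**
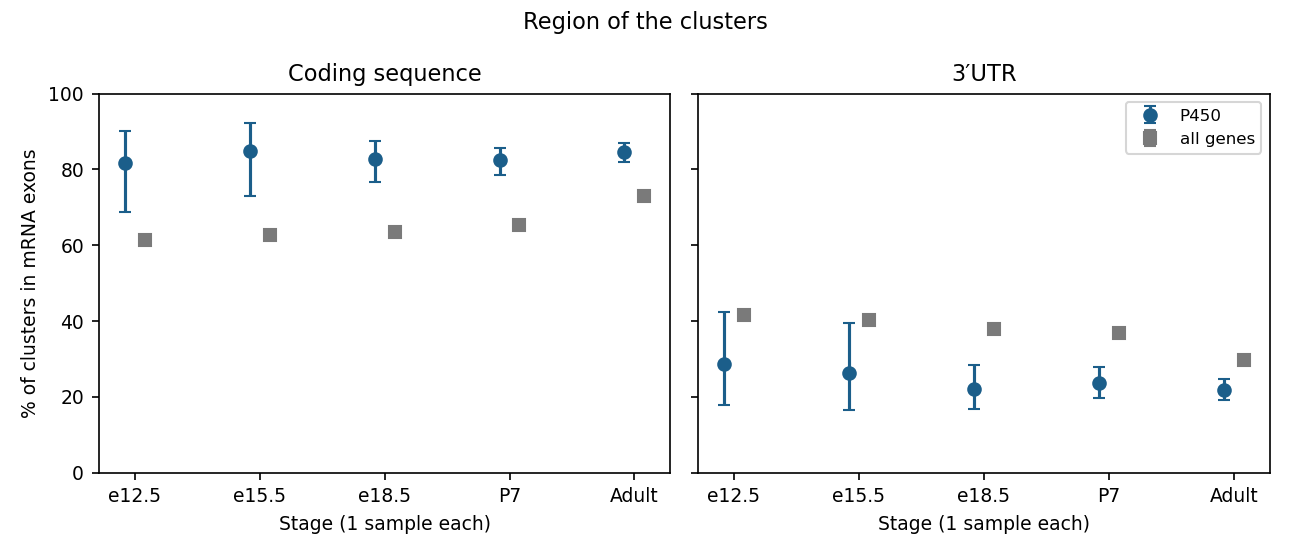
Clusters listed under coding sequence (left) and 3′UTR (right) as a percentage of clusters in mRNA exons, with 95% Wilson intervals, for P450 genes and all genes by stage. The P450 points lie near 84.5% for coding sequence and 21.8% for 3′UTR in the adult, above and below the points of all genes.

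Clusters in introns only were most frequent at e12.5. At that stage, 34 of 83 P450 clusters, or 41.0% (31.0 to 51.7), lay in introns only, against 8.36% (6.72 to 10.4) in the adult. The shares between were 10.2% (4.74 to 20.5), 11.9% (8.27 to 16.9) and 18.1% (15 to 21.6). Over all genes the shares were 29.4%, 16.3%, 16.9%, 16.6% and 16.3%. Counting mRNA exons alone, 25 P450 genes instead of 40 were listed at e12.5.

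Along the coding sequence, clusters were more frequent near the start at e12.5, e18.5 and P7 than over all genes, and more even in the adult. Of 338 P450 clusters placed in CDS at P7, 31.1% (26.4 to 36.2) lay in the first 20% of its length and 24.3% in the last, against 19.8% and 22.0% over all genes. The interval of the first part excluded the value of all genes and that of the last did not. At e18.5 both end parts held 28.5% (22.0 to 36.0) of 158 clusters. The earlier tables had few clusters and no common pattern, with 37.5% (24.2 to 53.0) in the first and 10% in the last part of 40 clusters at e12.5, and 17.8% and 33.3% of 45 at e15.5. In the adult the 5 equal parts held between 17.7% and 22.3% of 685 clusters. Clusters of near-identical genes are counted once per gene in these numbers.

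**Figure D5:**
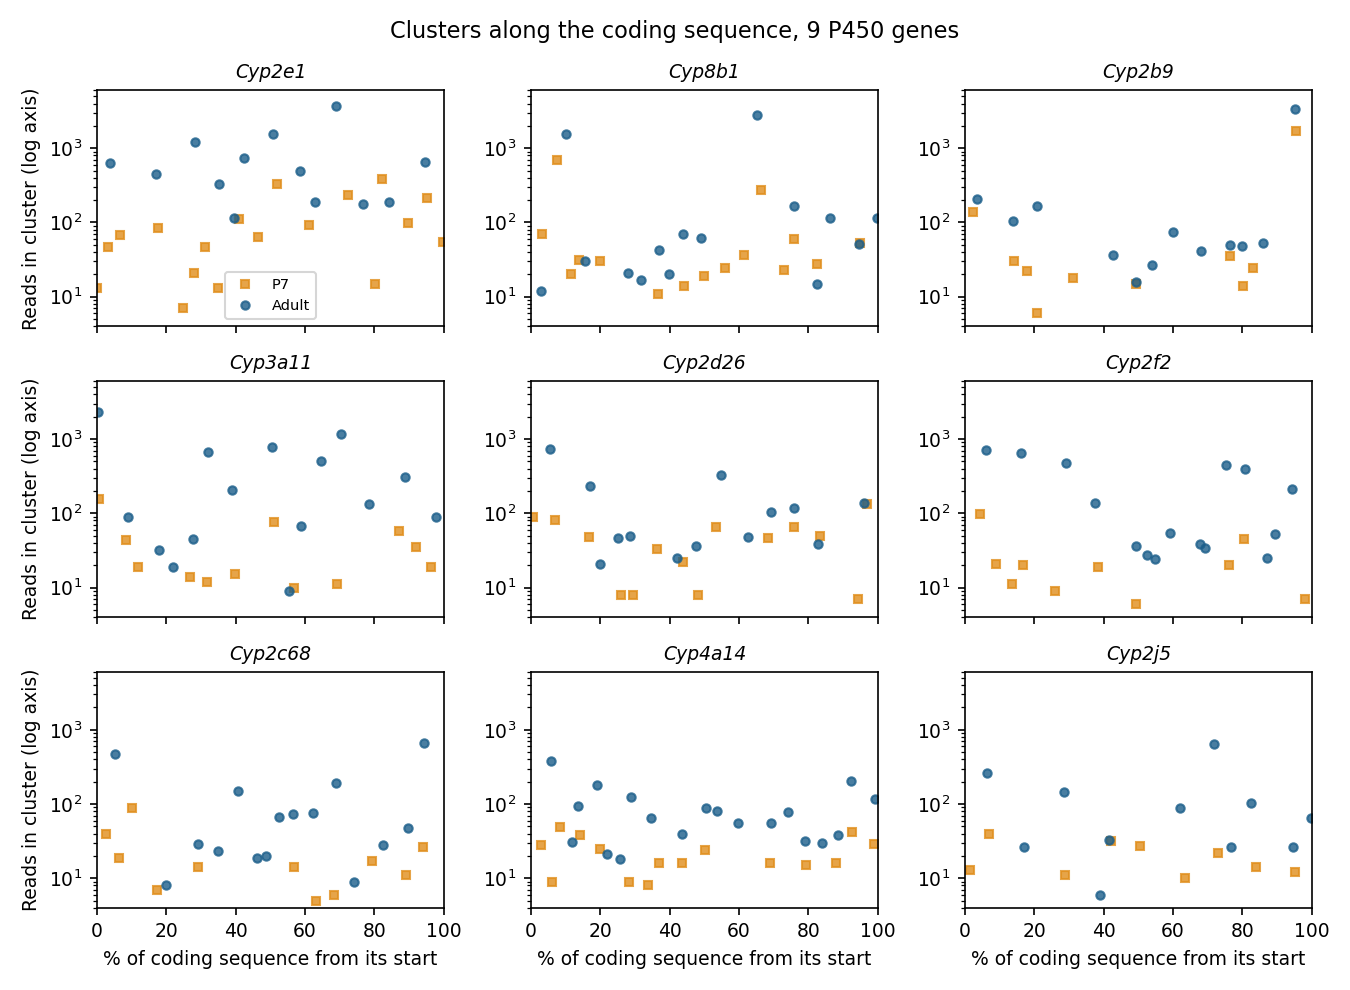
Position of P450 clusters along the coding sequence, as a percentage of its length from the start, and reads per cluster on a log axis, for 9 leading P450 genes at P7 (squares) and in the adult (circles). Cyp2b9 has 1 dominant cluster near the end of the coding sequence, with 3392 adult reads, and in Cyp8b1 the highest adult cluster, with 2818 reads, lies where P7 also has a cluster.

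Most places were listed in 1 table only, and a few recurred. The same counts were not made over all genes, so they do not set P450 places apart from others. Merging overlapping clusters over the tables gave 1209 P450 places, of which 878 were in 1 table, 221 in 2, 85 in 3, 18 in 4 and 7 in all 5. Of the 188 places at e18.5, 63.3% were also found in the adult, and of the 885 adult places 30.5% were found at P7 and 13.4% at e18.5. The place with the most reads among the 7 was in the coding sequence of Cyp8b1, at chr9:121915215-121915359, and had 18, 23, 1184, 313 and 2818 reads. It holds the 8mer of miR-122-5p printed above, the stretch itself being listed with 22, 1033, 276 and 2818 reads from e15.5 on. Others of the 7 were a place at the end of Cyp2a12 with 80, 11, 153, 239 and 357 reads, both in CDS and 3′UTR, and the first exon of Cyp2c68 with 86, 226, 390, 148 and 479 reads.

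The 3′UTR sites printed above differed in their course. The stretch with the 8mer of miR-92a-3p in Cyp2d22 had 434 reads at e12.5, added over both lists. It was not listed at e15.5, and had 131, 104 and 268 reads from e18.5 on. The miR-92a-3p site of Cyp3a13 had 5, 234, 154 and 33 reads from e15.5 on. Over the same stages miR-92a-3p itself held 0.956%, 0.917%, 0.513%, 0.311% and 0.0781% of the numbers listed for miRNAs. The miR-30a-5p match of 7 bases in Cyp2j5 was in clusters of 233 reads at P7 and 372 in the adult, and the 8mer beside it in a cluster of 54 reads at e18.5. For miR-30a-5p the share of these numbers was 1.21%, 4.64% and 1.07% at these stages from e18.5 on. The miR-29a-3p 8mer of Cyp2a12 had 138 reads at P7 and 330 in the adult, where miR-29a-3p held 0.218% and 1.61%.

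In the adult table, sites of abundant miRNAs were more frequent in P450 CDS clusters than over all genes by the widest count, and fewer in P450 3′UTR clusters by the strictest. In the adult, 89 of 179 P450 clusters listed under 3′UTR, or 49.7% (42.5 to 57), held a site of one of the 100 most abundant miRNAs, against 48.9% over all genes. For CDS these shares were 52.1% (48.4 to 55.8) of 693 and 45.8%. The CDS share was also above that of all genes at e12.5, with 55.0% (39.8 to 69.3) against 45.7%, and at P7, with 47.0% (41.8 to 52.2) against 40.5%. It was below at e15.5, with 42.2% against 48.6%, and at e18.5, with 42.4% against 44.9%. For sites of at least 7 matched bases of the 20 most abundant miRNAs, 15 of 179 P450 3′UTR clusters, or 8.38% (5.14 to 13.4), held one, against 16.1% over all genes, and in CDS the shares were 13.7% (11.3 to 16.5) and 13.4%. By this strict count the 3′UTR share was below that of all genes also at e12.5, e18.5 and P7. It was above at e15.5, with 14.3% of 14 clusters against 12.7%. Of the 15 adult clusters, which belonged to 11 genes, 8 lay in the 3′UTR of the transcript with the longest coding sequence.

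Those 8 clusters carried sites of few miRNAs. Sites of miR-27a-3p and miR-27b-3p, which have the same seed, lay in Cyp2b10, Cyp2b13, Cyp3a13 and Cyp4a14, the last as an 8mer in a cluster of 57 reads. Sites of miR-192-5p lay in Cyp2a4 and Cyp2a5, listed with 80 reads each. The others were the sites of miR-29a-3p in Cyp2a12 and of miR-30a-5p in Cyp2j5.

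A set of 12 miRNAs was counted singly in CDS and 3′UTR of each table. The intervals take clusters as independent, which those of near-identical genes are not. Intervals of miR-136-5p and miR-194-5p lay above the value of all genes in P450 coding sequence at e18.5 and in the adult. Those of miR-92a-3p did so in 3′UTRs in each table but that of P7. At e18.5 the 5 CDS clusters of miR-194-5p held 2 different stretches. Of the 7 of miR-136-5p, the 2 with a match of at least 7 bases held 1 stretch. At P7 no interval of the 12 lay above in either region, and miR-136-5p had 2.61% (1.38 to 4.88) in CDS against 1.39% and miR-194-5p 0.870% (0.296 to 2.53) against 0.633%. The remaining interval above was that of miR-26a-5p in e15.5 coding sequence, from 4 of 45 clusters. Of these 4, the 3 with a match of at least 7 bases, in 3 genes, held 1 stretch. For miR-92a-3p the adult share in 3′UTRs was 2.23% (0.872 to 5.6) against 0.741%, from 4 of 179 clusters, and in the embryo it rested on 1 or 2 clusters a table. In the adult, miR-194-5p had a site in 12 of 693 CDS clusters, or 1.73% (0.993 to 3.00), against 0.767%. These 12 clusters belonged to 11 genes and held 7 different stretches. miR-136-5p had a site in 33 of 693 adult P450 CDS clusters, or 4.76% (3.41 to 6.61), against 1.53% over all genes. These 33 clusters belonged to 21 genes but held 20 different stretches, so that related genes repeat some of them, and 14 had a match of at least 7 bases. miR-136-5p ranked 85 in the adult table, with 0.0326% of the numbers, against 2.40% at P7. For miR-122-5p the shares were 2.31% (1.43 to 3.72) in P450 CDS clusters against 3.04%, and 1.68% (0.572 to 4.81) in 3′UTR clusters against 3.66%. For let-7c-5p, the most abundant adult miRNA by these numbers, they were 1.3% (0.685 to 2.45) in CDS against 2.10%.

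Listed sites in P450 coding sequence had lower conservation scores than those of all genes in each table. The score deposited for each site runs from 0 to 1, with 1 for the most conserved. Over distinct sites in the adult its median was 0.551 in P450 CDS against 0.939 in CDS of all genes, and 0.031 in P450 3′UTRs against 0.266. At P7 the CDS medians were 0.479 and 0.955, and in the embryo 0.555, 0.488 and 0.537 against 0.981, 0.984 and 0.966. In 3′UTRs the direction was the opposite at e12.5, with a median of 0.895 over 67 P450 sites against 0.298. Of these sites, 39 were in Cyp20a1, with a median of 0.981, and the 16 of the drug and foreign compound group had a median of 0.003. Within the family, adult sites in CDS had medians of 0.5 in the drug and foreign compound group, 0.56 in the bile acid and cholesterol group and 0.63 in the fatty acid group. The steroid hormone group had 0.64 over 28 sites. The vitamin D and retinoic acid group had 0.998 over 123 sites, above the median of all genes. The order of the groups changed with the stage, and at e15.5 the fatty acid group was lowest, with 0.099 over 17 sites. The Cyp8b1 stretch of miR-122-5p had a score of 0.828 and the 3′UTR sites of Cyp2j5, Cyp3a13 and Cyp2a12 had scores of 0.006 or less, while that of Cyp2d22 had 0.558.

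Near-identical genes limit what can be said of single members. In the adult, 308 of 897 pairs of a cluster and a P450 gene, or 34.3%, held a stretch of at least 20 bases that was also listed for another P450 gene, and these pairs held 39.8% of the P450 reads. Of 601 such stretches, 411 had the same read number in more than 1 gene, so the same reads may be counted for each copy. The share of such pairs lay between 17.6% and 30.6% in the other tables. Without these clusters the adult level was below that of P7 for Cyp2c68, Cyp2a12 and Cyp3a25, with log2 differences of -0.48, -0.60 and -0.38. Leaving those clusters out, the adult RPM were 37.2-fold those at e12.5, and CDS held 78.4% of adult clusters in mRNA exons.

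The genes that work with P450 enzymes were called at about the rate of all genes. Of 29 such genes, 26 could be compared between e12.5 and the adult, 3 were higher, against 11.2% of all genes, and 10 were lower, against 33.3%. Their median log2 difference was -0.97, against -1.14 over all genes. The list of 7 electron donors, which holds the proteins that pass electrons to the P450 heme and also Pgrmc1, summed to 198, 278, 202, 197 and 309 RPM. Without Pgrmc1 the other 6 summed to 179.7, 259, 186, 132 and 143 RPM and were lower in the adult than at e12.5. Por, the reductase that serves all microsomal P450 enzymes, had 19.1, 20.6, 65.3, 50.4 and 53.7 RPM. Pgrmc1, which binds heme and P450 enzymes but is no electron donor itself, had 18.1, 19.9, 16.2, 65.5 and 167, and was the member of this list called higher. Fdxr, the reductase of the mitochondrial P450 enzymes, was called lower, with 2.56 RPM at e12.5 and 0.603 in the adult.

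The 8 enzymes of heme synthesis, which red cell precursors need in bulk, summed to 967, 1132, 520, 151 and 103 RPM. The erythroid markers given above were also low in the adult, and their part in these values was not tested. Of the 8 enzymes, 7 were called lower in the adult than at e12.5, against 33.3% of all genes, and Alas1, the first enzyme of the pathway outside blood cells, had 9.32, 19, 39.1, 23.2 and 27.8 RPM. Of the 10 regulators, the dioxin receptor Ahr and the fatty acid receptor Ppara were called higher of 7 compared, against 11.2% of all genes, with 2.61 RPM at e12.5 and 62.0 in the adult for Ppara. The drug receptor Nr1i3 was listed only at P7 and in the adult, with 6.24 and 6.75 RPM, and its relative Nr1i2 had 1.29 at e12.5 and 2.29 in the adult. Cyp51, the P450 enzyme of cholesterol synthesis, which the symbol rule leaves out, had 37.2 RPM at e12.5 and 43.6 in the adult.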

How the data were processed

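The 5 interaction tables, 1 for each stage of liver development, came from Ago HITS-CLIP. The authors used the FASTX-Toolkit for preprocessing and Bowtie for mapping; the submitters' processing notes name mm9 and mm10, and the listed positions fitted GRCm38 (mm10). They grouped reads into clusters, annotated these with UCSC refGene and Ensembl, and searched them for seed matches. Versions are not given in the sources used here, nor is the treatment of reads that map to several places. The deposited read column is a signal, a whole number not scaled to library size, headed as a maximum over the miRNA target in the e12.5 table and over the peak in the others. The deposited conservation value is a score, and so is the duplex free energy, which was not used. The number in each interaction name was taken as the abundance of the miRNA.

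Depth was between 13008703 and 44867326 cluster reads and between 76948 and 208193 clusters per table. Clusters of both lists of an embryonic table that overlapped on 1 strand were counted once, and reads were added up. Gene reads were scaled to the cluster reads of the table; Wilson intervals of 95% came from statsmodels 0.14.6 and cover counting error only. Calls needed a 4-fold difference and 20 reads. The calls were tested on simulated data. Sites were placed on the genome with pysam 0.24.0 and samtools 1.23.1, and lengths, exons and gene bounds were those of GENCODE M21. Named genes were the 25 with the highest mean scaled reads, the top gene of each role group, and those with a site of at least 7 bases of 1 of 12 miRNAs in 3′UTR clusters of at least 2 tables. Members, gene lists and rules were chosen with earlier results of these data known. Alternatives covered cluster filters, lists, scaling, shared clusters, regions and thresholds. The mature sequences of miR-122-5p, miR-143-3p and miR-378a-3p are not printed. Other experiments of the study were not analysed here.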

Additional observations from a re-analysis of the deposited data

How the results depend on the processing

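No paired analysis was possible because each stage had 1 sample. The rise in P450 reads from e12.5 to the adult kept its direction under every alternative run, between 34.0-fold and 124-fold. It was 59.8-fold with clusters of at least 10 reads, 75.2-fold with clusters that hold a site of at least 7 bases, 45.4-fold and 64.7-fold with the first and the second embryonic list, 98.1-fold against mRNA reads, 70.0-fold against library totals, 60.5-fold with clusters under P450 symbols only, 124-fold within mRNA exons, 34.0-fold with the highest cluster per gene, 37.2-fold without stretches shared between P450 genes and 49.8-fold without Cyp2e1, the leading gene. The share of clusters at e12.5 was 0.0309% in the first list and 0.0515% within mRNA exons. At e18.5 it was 0.450% within mRNA exons and 0.233% without shared stretches, and in the adult 1.53% and 0.725%, and 1.18% with at least 10 reads. The first list named 15 P450 genes at e12.5 and mRNA exons 25. Calls higher in the adult numbered 8 with the first list. Calls lower numbered 0 with at least 10 reads, with sites of at least 7 bases and with the second list, and 2 at 2-fold. The adult CDS share was 78.4% without shared stretches. Sites of the top 20 miRNAs were in 22.7% of adult CDS and 20.7% of 3′UTR clusters, those of the top 50 in 33.6% and 34.1%, and with clusters holding a site of at least 7 bases the CDS share for the top 100 was 58.6%.

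Of 27 named genes listed at both P7 and the adult, 25 were higher in the adult, and 13 of 240 values under other settings had the other sign. As log2 of adult over P7 these were Cyp20a1 at 0.22 with at least 10 reads, 0.25 against mRNA reads and 1.11 by its highest cluster; Cyp2c44 at 0.56 against mRNA reads and 0.57 within mRNA exons; Cyp3a13 at -0.016 with sites of at least 7 bases and -0.46 by its highest cluster; Cyp4a14 at -0.85, Cyp2d22 at -0.36 and Cyp3a25 at -0.082 by the highest cluster; and Cyp2c68 at -0.48, Cyp2a12 at -0.60 and Cyp3a25 at -0.38 without shared stretches. A further 86 values kept their sign but lay outside the counting interval, 25 of them against mRNA reads, 25 within mRNA exons and 19 by the highest cluster. Those that moved far include Cyp2a5, from 4.99 to 7.29 with sites of at least 7 bases, Cyp3a25, from 0.47 to 2.99 within mRNA exons, and Cyp2c40 from 3.15 to 0.77 and Cyp2b13 to 5.10 without shared stretches. Cyp2c67, Cyp2c69 and Cyp2a5 had no value without shared stretches. Scaling to mRNA reads adds 0.60 to every gene alike, so the changes under it are that 1 shift. The causes of the others were not tested. Leaving out clusters outside the gene was chosen after seeing the data. With 1 sample per stage, no value here has a replicate error, and genes with few reads near the listing limit of 5 can drop in or out of a table.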
